A study of Mus musculus with 22 samples.

Results

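The genes described here are those of glucose breakdown and of the response to low oxygen: glucose carriers, the enzymes of glycolysis, lactate carriers, the subunits and regulators of hypoxia-inducible factor (HIF) and a set of its well-known targets. The 36 genes were chosen by symbol, and for each of them 1 probe set was read, chosen for its mean over all 22 arrays. A probe set was found for 34 of them, out of 18194 genes in all. Eno1 and Gpi1 had none in the probe annotation and were not analysed here. The glycolysis side held 22 of the 34 genes and the hypoxia side 12.

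Glycolysis converts glucose to pyruvate in the cytosol, and lactate dehydrogenase turns pyruvate into lactate, which leaves the cell through monocarboxylate carriers. HIF is a pair of an alpha subunit, such as HIF-1 alpha or HIF-2 alpha (the product of Epas1), and the shared partner ARNT. With oxygen present, prolyl hydroxylases of the EGLN family mark the alpha subunits for destruction, so the amount of Hif1a messenger RNA does not give the amount of its protein. In lung, HIF-2 alpha is known for its abundance in endothelial cells.

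The sorted cells came from A2C12, a single lung tumour line derived from a C57BL/6 mouse with c-myc and c-raf transgenes. From it, the side population (SP) was collected by flow cytometry as the fraction that excludes the DNA dye Hoechst 33342. In 3 SP samples the cells had first been exposed to a monoclonal antibody against mouse EpCAM, a surface glycoprotein of epithelial cells, at 100 µg/ml for 48 h, and 3 SP samples were untreated. The 16 lung samples were tissue of non-transgenic C57BL/6 mice, 8 labelled female and 8 labelled male, with no age in the labels. The series compared SP cells with and without antibody, and SP cells with normal lung. The labels name no oxygen level for the cultures. Samples of a group are labelled as biological replicates, but the cell samples share 1 line, so their spread does not cover differences between tumours.

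Values are array intensities on a linear scale, one number per probe set and array. Changes are differences of log2(intensity + 16) after quantile normalization, as antibody-treated or untreated cells minus lung, with the standard error (SE) of a linear model fitted with limma. A gene was called against lung at an adjusted p under 0.05 and a change of at least 2-fold. The intensities of different probe sets are not on 1 scale, so levels are compared between samples and never between genes. Median intensity was 39.4 to 40.7 on the cell arrays and 47.9 to 54.6 on the lung arrays. The arrays labelled male lung 3 and male lung 4 went against their label: Xist, a transcript of the inactive X chromosome, read 1512 and 1583 there, against 12.7 to 24.0 on the other 6 arrays labelled male and 1225 to 1951 on those labelled female. Uty, a gene of the Y chromosome, read 8.27 and 9.46 there. Lung values below rest on all 16 arrays unless stated.

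The spiked control dap had intensities of 366 to 601 in cells, against 2.72 or less in lung. The Gapdh probe set at the 3′ end exceeded that at the 5′ end by -0.13 to 0.40 on the log2 scale in cells and by 0.22 to 1.02 in lung. The same difference for Actb was 0.22 to 1.21 in cells and 0.28 to 0.90 in lung. For both genes the ranges of cells and lung overlapped, but both ends of the Gapdh range were lower in cells. The Gapdh change against lung also differed between its probe sets, as given below. The signal of dap splits the arrays as tissue does, and a difference in labelling cannot be told apart from it.

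Sequence was printed for the 7 genes with the largest rise in untreated cells, so that the letters known to bind HIF can be seen beside the values. Each line is 300 bases, from 250 before to 50 after the first start that RefSeq lists for the gene (mouse GRCm38.p6), read in the direction of transcription. Capitals mark ACGTG or GCGTG on either strand (CACGT and CACGC on the printed one), the core of the hypoxia response element; CACGTG holds ACGTG on both strands and is also the E-box of MYC and its relatives.
Egln3, chr12:54203825-54204124 minus strand: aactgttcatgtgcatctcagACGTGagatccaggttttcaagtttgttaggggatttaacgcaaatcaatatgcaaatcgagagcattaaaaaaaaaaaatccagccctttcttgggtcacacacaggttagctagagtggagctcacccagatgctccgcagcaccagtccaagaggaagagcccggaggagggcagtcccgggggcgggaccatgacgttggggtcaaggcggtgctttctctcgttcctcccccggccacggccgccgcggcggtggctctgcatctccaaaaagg
Slc16a1, chr3:104638414-104638713 plus strand: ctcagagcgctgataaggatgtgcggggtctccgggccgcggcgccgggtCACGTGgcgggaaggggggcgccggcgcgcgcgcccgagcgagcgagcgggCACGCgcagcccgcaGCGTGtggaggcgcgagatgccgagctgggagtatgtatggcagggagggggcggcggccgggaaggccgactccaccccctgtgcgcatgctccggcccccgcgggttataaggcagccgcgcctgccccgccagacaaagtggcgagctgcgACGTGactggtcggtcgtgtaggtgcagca
Pdk1, chr2:71872974-71873273 plus strand: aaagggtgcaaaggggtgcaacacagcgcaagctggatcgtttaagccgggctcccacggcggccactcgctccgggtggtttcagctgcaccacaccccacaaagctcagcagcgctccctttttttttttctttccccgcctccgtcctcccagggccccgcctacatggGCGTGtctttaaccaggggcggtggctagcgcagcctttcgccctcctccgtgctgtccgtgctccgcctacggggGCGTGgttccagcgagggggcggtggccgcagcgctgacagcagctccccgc
Pgam1, chr19:41911621-41911920 plus strand: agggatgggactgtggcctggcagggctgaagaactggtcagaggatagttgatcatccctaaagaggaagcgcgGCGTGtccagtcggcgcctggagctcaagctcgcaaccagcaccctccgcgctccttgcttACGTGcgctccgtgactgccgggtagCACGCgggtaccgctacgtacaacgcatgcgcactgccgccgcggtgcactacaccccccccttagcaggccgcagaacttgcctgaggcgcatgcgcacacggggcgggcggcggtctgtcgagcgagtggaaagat
Tpi1, chr6:124814109-124814408 minus strand: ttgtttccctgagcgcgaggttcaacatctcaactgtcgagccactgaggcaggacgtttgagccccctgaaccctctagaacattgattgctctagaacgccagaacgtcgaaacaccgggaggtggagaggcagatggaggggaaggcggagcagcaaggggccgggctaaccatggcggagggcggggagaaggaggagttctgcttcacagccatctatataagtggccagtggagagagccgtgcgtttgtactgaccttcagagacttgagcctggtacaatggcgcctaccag
Pgk1, chrX:106186850-106187149 plus strand: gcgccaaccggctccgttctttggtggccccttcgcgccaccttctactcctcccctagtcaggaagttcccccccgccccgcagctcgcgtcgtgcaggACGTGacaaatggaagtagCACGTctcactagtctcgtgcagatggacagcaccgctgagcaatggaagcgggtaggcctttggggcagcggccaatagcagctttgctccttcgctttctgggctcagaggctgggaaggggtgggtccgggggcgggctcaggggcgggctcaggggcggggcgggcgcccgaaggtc
Hif1a, chr12:73907617-73907916 plus strand: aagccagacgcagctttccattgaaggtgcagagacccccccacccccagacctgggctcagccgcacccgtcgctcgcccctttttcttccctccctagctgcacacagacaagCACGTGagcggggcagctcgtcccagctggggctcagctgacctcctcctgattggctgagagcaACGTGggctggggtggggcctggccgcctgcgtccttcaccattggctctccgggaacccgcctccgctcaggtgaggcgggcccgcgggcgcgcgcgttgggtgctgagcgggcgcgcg

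Of these, Pgk1 held ACGTG on opposite strands 150 and 131 bases before the start. Slc16a1 and Hif1a held CACGTG, 200 and 135 bases before the start. Egln3 had a single ACGTG at 229 bases, Pdk1 had only GCGTG, at 78 and 2 bases, and no match was present in the Tpi1 window. RefSeq listed 47 promoters for 33 of the 36 genes; Slc2a3, Epas1 and Ndrg1 were not among them. ACGTG was found in 25 of these 47 promoters (53.2%) and in 19.6% of all 32851 RefSeq promoters of that length. GCGTG was found in 57.4% and 32.4%, and CACGTG in 12.8% and 7.15%. The share with ACGTG was 56.2% for the 16 promoters of genes called higher in untreated cells than in lung and 59.3% for the 27 promoters of the other measured genes. In the same order, GCGTG was found in 43.8% and 63%, and either of these motifs in 75% and 85.2%. Some windows of the same gene overlap, so a site can be counted more than once. Median GC content was 61.3% in the 47 promoters and 52.7% in all. Several of these genes entered the list as textbook HIF targets, and no test was made.

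**Figure D1:**
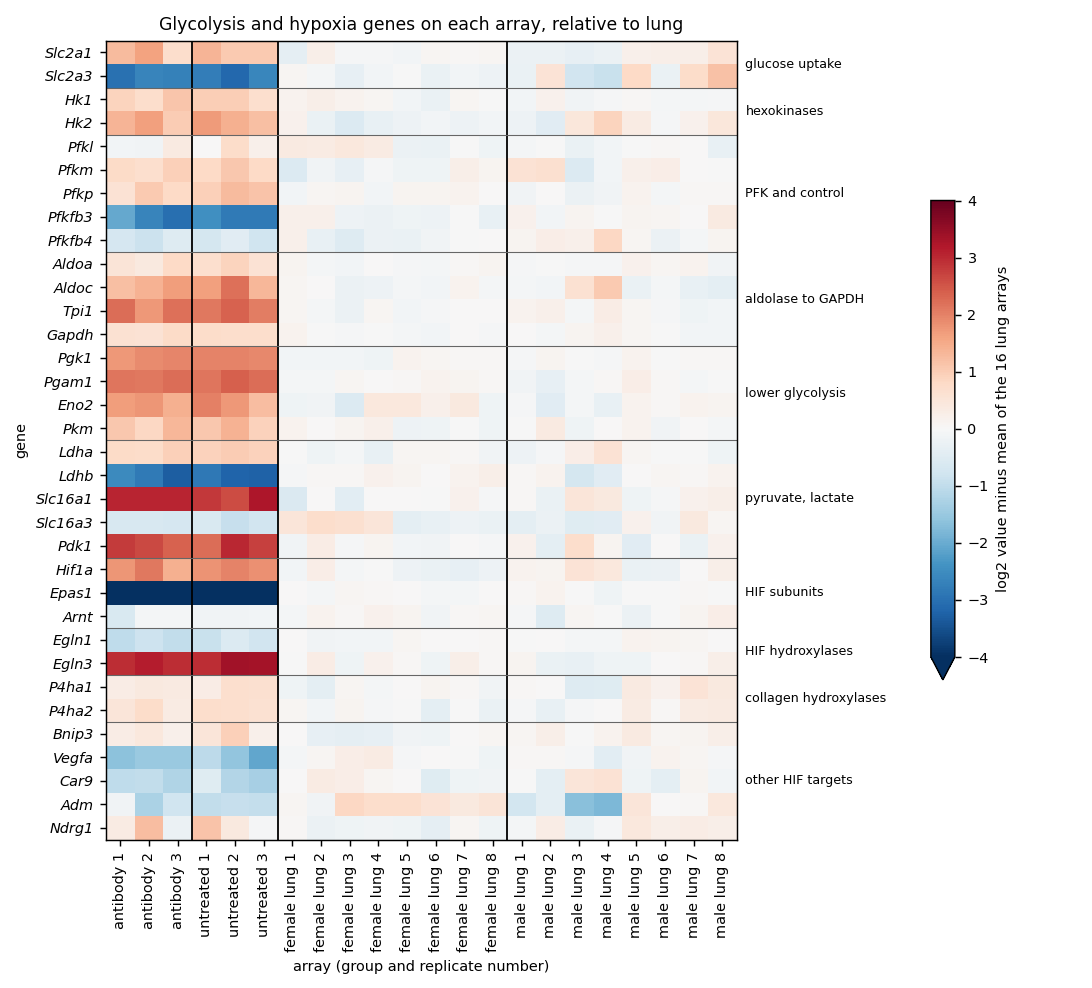
Log2 value of each of the 34 genes on each of the 22 arrays, minus the mean of the 16 lung arrays (colour, cut at -4 and 4), with antibody-treated cells, untreated cells and lung from left to right and genes grouped by role. The 6 cell arrays look alike, with Egln3, Slc16a1 and Pdk1 highest and Epas1 lowest relative to lung.

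In SP cells the 4 measured genes of lower glycolysis, Slc16a1, Pdk1, Tpi1, Hif1a and Egln3 stood higher than in lung, while Epas1, Ldhb, Slc2a3, Pfkfb3 and Vegfa stood lower. In antibody-treated cells 12 of 34 genes were called higher and 6 lower than in lung, and in untreated cells 13 higher and 5 lower. Among all genes tested, 16.9% were called higher and 23.7% lower in antibody-treated cells, and 17.5% and 23.6% in untreated cells. The median change of the 34 genes was 0.61 in antibody-treated and 0.72 in untreated cells, with -0.01 and 0.01 over all genes tested. On the glycolysis side 10 genes were higher and 3 lower in antibody-treated cells, and 11 and 3 in untreated cells. On the hypoxia side the counts were 2 higher and 3 lower, and 2 and 2. Both comparisons use the same lung arrays, so they are not independent of each other.

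The call also turned on the size required. On the adjusted p alone, 21 genes were higher and 9 lower in antibody-treated cells, and 22 and 10 in untreated cells, where 39.6% and 41.2% of all genes tested, and 40.9% and 40.7%, passed in those directions. After normalization, ranges of the cell and lung arrays did not overlap for 18 genes above and 8 below in antibody-treated cells (29.9% and 33% of all genes) and for 19 above and 7 below in untreated cells (32% and 33.6%). On the deposited intensities the counts were 17 above and 9 below in antibody-treated cells (24.7% and 36.8% of all genes), and 19 and 9 in untreated cells (27.1% and 37.2%). Without the arrays labelled male 3 and 4, 12 genes were higher and 5 lower in antibody-treated cells, and 14 and 6 in untreated cells. In bulk RNA, fewer cells of a type and less RNA per cell cannot be told apart.

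**Figure D2:**
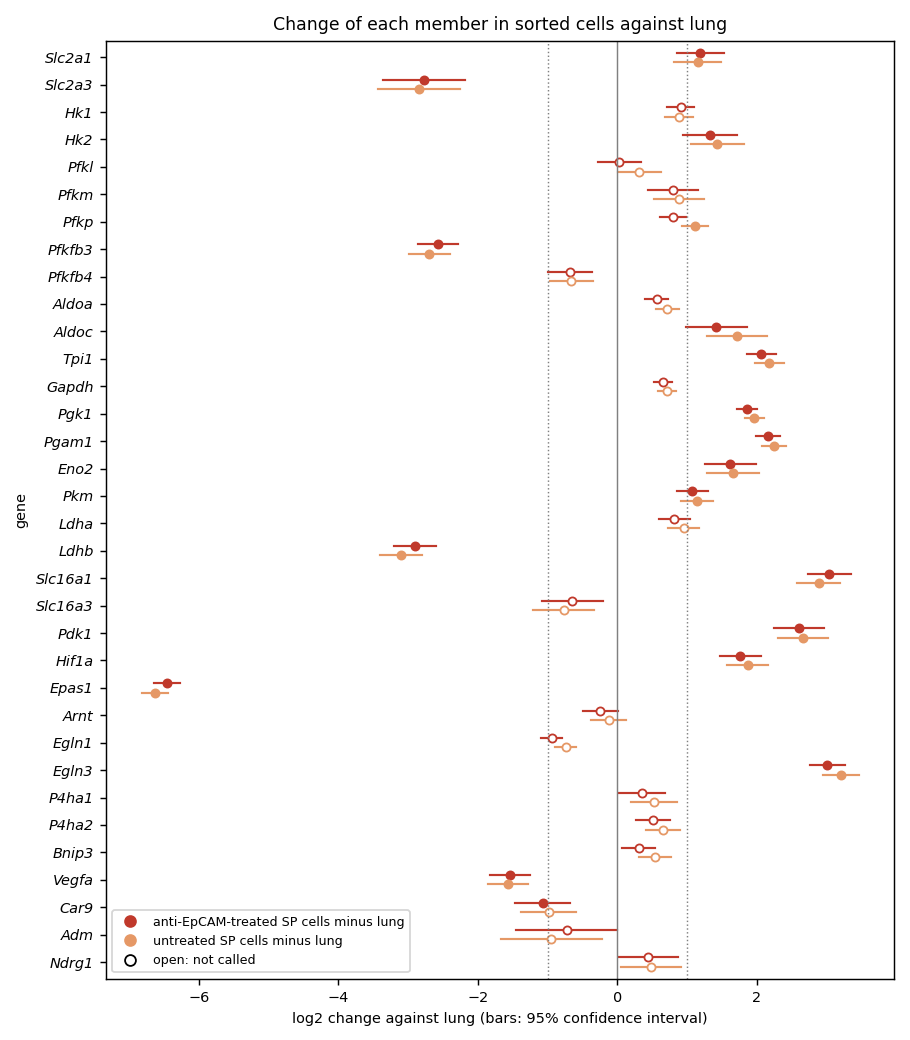
Log2 change of each gene in antibody-treated (red) and untreated (orange) SP cells against lung, with 95% confidence intervals; filled points were called and dotted lines mark 2-fold. The largest rise in untreated cells was 3.21 (Egln3) and the largest fall -6.63 (Epas1).

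Glucose enters cells through facilitative carriers, and the carriers Slc2a1 (GLUT1) and Slc2a3 (GLUT3) moved in opposite directions. Slc2a1 averaged 1250.3 ± 369 in antibody-treated cells, 1223 ± 206 in untreated cells (SD, n = 3 each) and 541 ± 120 in lung (SD, n = 16), a rise of 1.19 and 1.16. Its rise was 0.99 without the array of antibody replicate 2. Slc2a3 read 17.6, 27.1 and 24.9 on the antibody-treated arrays, 22.9, 15.7 and 27.0 on the untreated arrays, and 136 to 699 in lung with a median of 277. All 6 cell arrays lay below every lung array, and the cell values lay under the median of their arrays. Slc2a3 was too dim on the cell arrays to be tested between the cell groups. It entered the tests against lung only through the lung arrays, where it is high. The change was -2.77 ± 0.29 in antibody-treated and -2.84 ± 0.29 in untreated cells (SE; adjusted p = 3.82e-09 and 2.42e-09), and the size depends on the offset, with -1.96 in untreated cells at an offset of 64. It was -1.10 and -1.02 as the mean over 4 probe sets, of which 2 were too dim to test and 1 changed by -2.37 and -2.39. Neutrophils, platelets and other blood cells are known to carry GLUT3. Myeloid markers summed to 470 to 704 in antibody-treated cells, 483 to 748 in untreated cells and 17376 to 27879 in lung. All 8 of them were called lower in both cell groups, with Lyz2, Marco and Ptprc among the 6 that stayed under 40 on every cell array. Only 2 of the 8 were bright enough to be tested between the cell groups. The others entered the tests against lung through the lung arrays, where they are high. The part of the myeloid markers in the Slc2a3 result was not tested.

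Hexokinases trap glucose as glucose 6-phosphate, and Hk2 is the inducible form found in many tumours. Hk2 rose by 1.33 ± 0.19 in antibody-treated and by 1.44 ± 0.19 in untreated cells (SE; adjusted p = 6.09e-07 and 1.80e-07). Its intensities were 800.2 ± 167, 879 ± 203 (SD, n = 3 each) and 334 ± 97.0 in lung (SD, n = 16). Hk1, the form present in most tissues, changed by 0.91 and 0.88, under 2-fold, but by 1.01 without the array of antibody replicate 2. A second Hk1 probe set went the other way, with changes of -0.72 and -0.67, so the direction of Hk1 depends on the probe set. The mean of both was 0.10 and 0.11.

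Phosphofructokinase commits sugar to glycolysis, and its platelet-type form Pfkp was the only phosphofructokinase gene called. Pfkp read 726, 1004 and 866 on the antibody-treated arrays, 1013, 1209.7 and 1105 on the untreated arrays, and 417 to 576 in lung with a median of 519. It rose by 1.11 ± 0.09 in untreated cells (SE; adjusted p = 9.39e-11), and its change in antibody-treated cells was 0.80, under 2-fold. The muscle-type form Pfkm changed by 0.80 in antibody-treated and 0.89 in untreated cells. The liver-type form Pfkl changed by 0.03 and 0.32 and did not pass the test, and its value in antibody-treated cells was -0.14 without the array of antibody replicate 3. Another Pfkl probe set rose by 2.87 and 3.07, with means of 178 and 219 in antibody-treated and untreated cells and 14.7 in lung, so the probe sets of Pfkl disagree. Pfkfb3 and Pfkfb4 encode bifunctional enzymes that set fructose 2,6-bisphosphate, an activator of phosphofructokinase. Pfkfb3 read 83.0, 48.8 and 33.8 on the antibody-treated arrays, 55.7, 42.0 and 41.1 on the untreated arrays, and 355 to 627 in lung with a median of 469.8. It fell by 2.57 and 2.70 on the log2 scale (adjusted p = 3.43e-14 and 1.30e-14), with no overlap between cells and lung. A second, dim Pfkfb3 probe set changed by -0.08 and 0.05, and the mean of both by -1.33 and -1.32. Pfkfb4 changed by -0.68 and -0.66, under 2-fold.

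The steps from aldolase to glyceraldehyde 3-phosphate dehydrogenase split the sugar and start the energy yield. Tpi1, triosephosphate isomerase, read 7219, 4722 and 6482 on the antibody-treated arrays, 5982, 7287 and 5874 on the untreated arrays, and 1066 to 1554 in lung with a median of 1275. It rose by 2.07 ± 0.10 in antibody-treated and 2.18 ± 0.10 in untreated cells (SE; adjusted p = 2.43e-15 and 8.49e-16), and the other 2 Tpi1 probe sets rose by 1.90 and 2.41 in antibody-treated cells and by at least 2.06 in untreated cells. Aldoc, the aldolase known from brain, read 316, 354 and 458 on the antibody-treated arrays, 457, 669 and 337 on the untreated arrays, and 116 to 282 in lung with a median of 140.1. The highest lung values of Aldoc were those of the arrays labelled male 3 and 4, at 222 and 282, against 116 to 165 on the other 14. Aldoc rose by 1.42 and 1.72, and by 1.55 and 1.84 without those 2 arrays. As the mean with a second probe set, too dim to test, the changes were 0.85 and 1.21, and the call in antibody-treated cells was lost. The muscle-type aldolase Aldoa changed by 0.56 and 0.72 and Gapdh by 0.65 and 0.72, with cell and lung arrays apart but under 2-fold. Other Aldoa probe sets changed by 0.64 to 2.07 in untreated cells, and the Gapdh probe sets for the middle and 5′ parts by 1.11 and 1.33. All 5 Aldoa probe sets are of the cross-hybridizing type (_x_at).

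In lower glycolysis all 4 measured genes were called higher in both cell groups. Pgk1, phosphoglycerate kinase, read 6277, 6992 and 6991 on the antibody-treated arrays, 7178, 7153 and 7098 on the untreated arrays, and 1461 to 1839.6 in lung with a median of 1659.8. It rose by 1.86 ± 0.07 and 1.97 ± 0.07 (SE; adjusted p = 1.10e-17 and 3.41e-18), with cells about 3.62 and 3.91 times lung. Pgam1, phosphoglycerate mutase, read 5644, 5169 and 5533 on the antibody-treated arrays, 5215, 5994 and 5702 on the untreated arrays, and 762 to 1355 in lung with a median of 1117. It rose by 2.17 ± 0.08 and 2.25 ± 0.08 (SE; adjusted p = 3.94e-17 and 1.87e-17). Eno2, the enolase known from neurons, rose by 1.62 and 1.66, with 95.8 ± 14.2 in antibody-treated cells, 101 ± 32.5 in untreated cells (SD, n = 3 each) and 28.3 ± 9.03 in lung (SD, n = 16), and its rise in antibody-treated cells was 0.97 at an offset of 64. Pkm, pyruvate kinase, rose by 1.08 and 1.14, and by 0.96 in antibody-treated cells without the array of replicate 3. Many glycolytic genes have near-identical processed pseudogenes in the mouse genome, and whether their transcripts reach these probe sets was not tested.

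**Figure D3:**
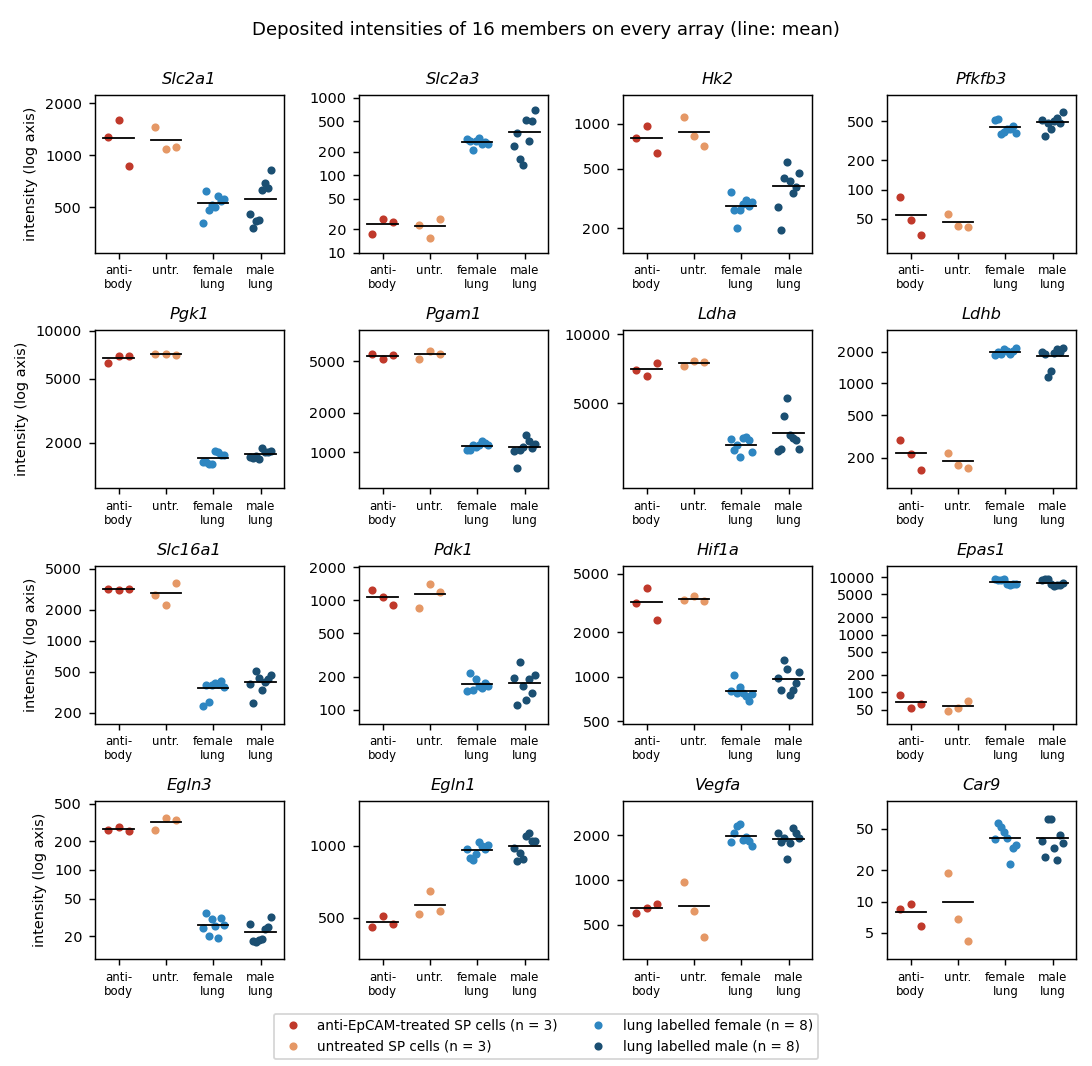
Deposited intensity of 16 of the genes on every array (log axis, a scale of its own in each panel), with antibody-treated cells, untreated cells, lung labelled female and lung labelled male from left to right and lines at the group means. Slc2a3, Ldhb, Epas1, Pfkfb3 and Vegfa lie lower on all 6 cell arrays than on any lung array.

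At the branch from pyruvate, Slc16a1 and Pdk1 were called higher and Ldhb lower in both cell groups, and Ldha and Slc16a3 were not called. Lactate dehydrogenase is built from A and B subunits. Ldha read 7007, 6592 and 7478 on the antibody-treated arrays, 7303, 7654 and 7565 on the untreated arrays, and 2898 to 5275 in lung with a median of 3440.4. Every cell array lay above every lung array, yet the changes of 0.82 and 0.95 were under 2-fold. The arrays labelled male 3 and 4 held the highest lung values, 4374 and 5275, against 2898 to 3639.8 on the other 14, and without them the change in untreated cells was 1.01. Ldhb read 293, 218 and 153 on the antibody-treated arrays, 222, 173 and 159 on the untreated arrays, and 1162 to 2146 in lung with a median of 1965. It fell by 2.90 and 3.10 on the log2 scale (adjusted p = 6.42e-15 and 1.61e-15). The 3 other Ldhb probe sets changed by -3.30 to -2.85 in antibody-treated and by -3.56 to -3.16 in untreated cells.

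Of the lactate carriers Slc16a1 and Slc16a3, only Slc16a1 passed the rule for a call. Slc16a1 (MCT1) read 3163, 3065 and 3165 on the antibody-treated arrays, 2786, 2233 and 3586 on the untreated arrays, and 232 to 502 in lung with a median of 376. It rose by 3.04 ± 0.15 and 2.89 ± 0.15 (SE; adjusted p = 3.38e-15 and 9.00e-15), about 8.24 and 7.42 times lung. Slc16a3 (MCT4), a HIF target and the carrier of strongly glycolytic cells, was dim in the cells, at 31.6 ± 0.957 and 28.4 ± 4.00 (SD, n = 3 each), against 76.7 ± 28.2 in lung (SD, n = 16). Its changes of -0.64 and -0.77 were under 2-fold, though every cell array lay below every lung array. Their size depends on the processing. In untreated cells it was -0.997 at an offset of 1, -0.45 at an offset of 64 and -1.01 without normalization. Pdk1, the kinase that switches off pyruvate dehydrogenase, read 1233, 1072 and 898 on the antibody-treated arrays, 845, 1403 and 1178 on the untreated arrays, and 110.5 to 273 in lung with a median of 165. It rose by 2.60 ± 0.17 and 2.66 ± 0.17 (SE; adjusted p = 1.23e-12 and 7.64e-13), and its 3 other probe sets rose by 1.06 to 2.10 in antibody-treated and by 1.27 to 2.37 in untreated cells.

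Among the HIF subunits, Hif1a was higher and Epas1 far lower in SP cells than in lung. Hif1a read 3153, 3993 and 2433 on the antibody-treated arrays, 3316, 3538 and 3274 on the untreated arrays, and 680.4 to 1289 in lung with a median of 816. It rose by 1.76 ± 0.14 and 1.87 ± 0.14 (SE; adjusted p = 5.01e-11 and 1.67e-11). Of its 3 other probe sets, one rose by 1.75 and 1.86, one changed by 0.63 and 0.85, and one was too dim to test; the mean over all 4 was 1.03 and 1.16. Epas1 read 90.5, 53.4 and 61.4 on the antibody-treated arrays, 48.0, 53.9 and 71.2 on the untreated arrays, and 6904 to 9371 in lung with a median of 7690.2. It fell by 6.46 ± 0.09 and 6.63 ± 0.09 on the log2 scale (SE; adjusted p = 7.06e-26 and 4.12e-26), which is 88.0 and 99.1 times lower than in lung. A second Epas1 probe set fell by 4.98 and 4.69. The size of the fall depends on the probe set and the offset. In untreated cells the change was -5.66 as the mean of probe sets, -5.99 at an offset of 64 and -6.91 at an offset of 1. Arnt changed by -0.25 and -0.12 and did not pass the test, and its 4 other probe sets split in sign. The endothelial markers were lower as well: all 8 (Pecam1, Cdh5, Kdr, Tek, Emcn, Cldn5, Vwf and Ramp2) were called lower, and each stayed under 40 on every cell array. Their summed intensity was 82.0 to 94.5 in antibody-treated cells, 78.7 to 95.9 in untreated cells and 13377 to 25702 in lung. Only 1 of the 8, Kdr, was bright enough to be tested between the cell groups. The others entered the tests against lung through the lung arrays, where they are high. The part of the endothelial markers in the Epas1 result was not tested.

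Of the prolyl hydroxylases that sense oxygen for HIF, Egln3 was called higher and Egln1 was not called. Egln3 (PHD3), itself a HIF target, read 266, 286 and 255 on the antibody-treated arrays, 264, 351 and 335 on the untreated arrays, and 17.3 to 35.1 in lung with a median of 24.5. It rose by 3.01 ± 0.12 and 3.21 ± 0.12 (SE; adjusted p = 7.86e-17 and 2.14e-17), and since the lung values are near the offset, the rise in untreated cells was 2.22 at an offset of 64 and 3.87 at an offset of 1. Too dim on the lung arrays to be tested within lung, Egln3 entered these tests only through the cell arrays, where it is high. Its second probe set rose by 2.09 and 2.11. Egln1 (PHD2) read 457, 509 and 471 on the antibody-treated arrays, 519, 645 and 533 on the untreated arrays, and 866 to 1132 in lung with a median of 976. Cell and lung arrays did not overlap, and the changes of -0.94 and -0.74 were under 2-fold. The second Egln1 probe set changed by -0.18 and 0.05. The collagen prolyl hydroxylase subunits P4ha1 and P4ha2, known HIF targets, changed by 0.35 and 0.51 in antibody-treated cells and by 0.53 and 0.66 in untreated cells, under 2-fold. A second P4ha1 probe set rose by 1.23 and 1.52.

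Of the other genes grouped as HIF targets, Vegfa was called lower in both cell groups and Car9 in antibody-treated cells only. Adm, Bnip3 and Ndrg1 were not called. Vegfa, which encodes the main growth factor for blood vessels, read 595, 649 and 684 on the antibody-treated arrays, 962, 621 and 415 on the untreated arrays, and 1386 to 2389 in lung with a median of 1911. It fell by 1.54 ± 0.14 and 1.57 ± 0.14 on the log2 scale (adjusted p = 2.92e-10 and 2.09e-10), and a second probe set changed by -0.40 and -0.22 without passing. Alveolar epithelial cells are known sources of Vegfa in lung. Alveolar type 1 markers summed to 1742 to 1810.4 in antibody-treated cells, 1635 to 2092 in untreated cells and 21362 to 28569 in lung, with 5 of 6 called lower and Cldn18 and Rtkn2 under 40 on every cell array, and their part was not tested. Car9, carbonic anhydrase IX, was dim in the cells, at 8.43, 9.41 and 5.78 on the antibody-treated arrays and 18.8, 6.89 and 4.16 on the untreated arrays, against 23.0 to 62.4 in lung. Its change of -1.07 in antibody-treated cells was called, but it was -0.98 without the arrays labelled male 3 and 4 and -0.999 without the array of antibody replicate 3. Its size follows the offset, with -1.88 at an offset of 1 and -0.47 at an offset of 64. In untreated cells it was -0.99, and -1.24 without the array of replicate 1, with -1.79 and -0.43 at those offsets. Adm, the vasodilator peptide adrenomedullin, changed by -0.73 and -0.95, and without the arrays labelled male 3 and 4 by -0.94 and -1.16; without the array of antibody replicate 1 its change was -1.02. The mitophagy gene Bnip3 changed by 0.30 and 0.54, and the stress gene Ndrg1 by 0.45 and 0.48, all under 2-fold. The other 4 Ndrg1 probe sets changed by 0.04 to 1.197 in untreated cells.

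**Figure D4:**
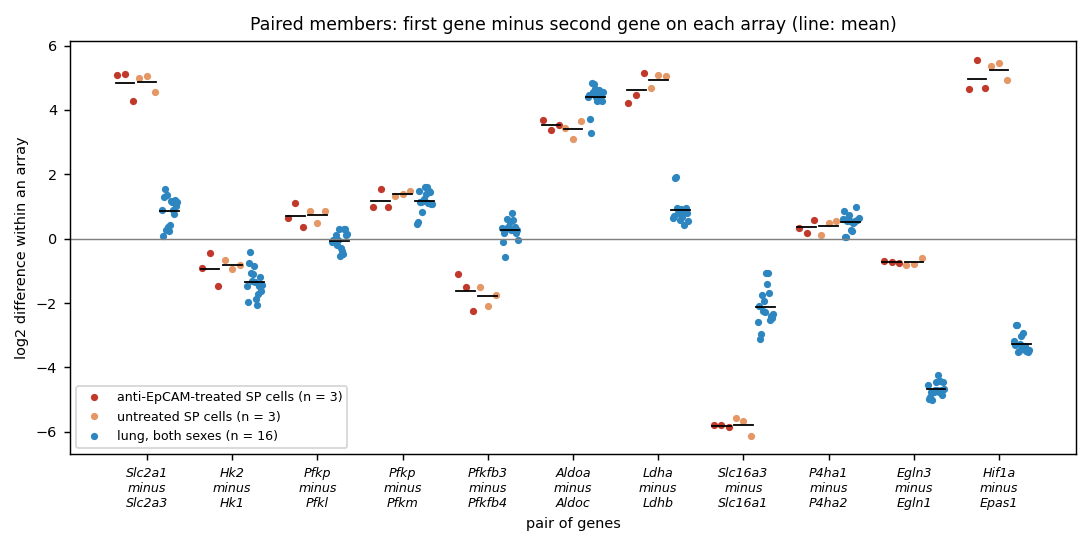
Log2 value of the first gene minus that of the second gene on each array, for 11 pairs of related genes, in antibody-treated cells, untreated cells and lung (lines: means). Height within a pair carries no meaning because probe sets differ in scale. The gap between cells and lung does, for the probe set read for each gene. It was 8.50 for Hif1a minus Epas1 in untreated cells.

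Pairs of related genes were also set side by side on the same array, on the normalized log2 scale, as a description with no test. Hif1a minus Epas1 stood 8.22 higher in antibody-treated and 8.50 higher in untreated cells than in lung. Ldha minus Ldhb was shifted by 3.72 and 4.05, Slc2a1 minus Slc2a3 by 3.96 and 4.00, and Egln3 minus Egln1 by 3.95 and 3.95. In these 4 pairs all 6 cell arrays lay above all lung arrays. Slc16a3 minus Slc16a1 was shifted by -3.69 and -3.66 and Pfkfb3 minus Pfkfb4 by -1.89 and -2.04, with every cell array below every lung array. Pfkp minus Pfkl was shifted by 0.77 and 0.80, with no overlap. For Aldoa minus Aldoc (-0.86 and -0.998), Hk2 minus Hk1 (0.42 and 0.55), Pfkp minus Pfkm (-0.00 and 0.23) and P4ha1 minus P4ha2 (-0.16 and -0.13) the cell and lung arrays overlapped.

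Genes around these routes were described by the same rule, and their counts stand against 17.5% higher and 23.6% lower among all genes tested in untreated cells against lung. Of 18 other glycolytic genes tested in untreated cells against lung, 4 were higher and 3 lower: Pgk2 (2.24), Ldhc (2.13), Eno3 (2.01) and Minpp1 (1.63), and Pgam2 (-2.55), Bpgm (-1.47) and Pgm2l1 (-1.27). Pgk2 and Ldhc are the testis forms of Pgk1 and Ldha, and their low signals of 71.5 and 126 in untreated cells are uncertain, since a share of signal from these close copies was not tested. Of 14 further glucose, lactate and pyruvate carriers, Slc2a10 was the only one higher (1.88) and 6 were lower, with the insulin-responsive carrier Slc2a4 (-3.08), the lactate and pyruvate carrier Slc16a7 (-2.68), Slc2a12 (-2.42) and Slc2a13 (-2.33) lowest. Around pyruvate dehydrogenase, 1 of 11 was higher, the complex subunit Pdhx (1.25), and 2 were lower, the kinases Pdk2 (-2.19) and Pdk4 (-1.34). None of 6 pentose phosphate genes was called, with 5 at an unadjusted p under 0.05 and a median change of 0.23. In glucose synthesis and glycogen turnover 1 of 13 was higher, the mitochondrial enzyme Pck2 (2.88), and 5 were lower, among them the glycogen phosphorylases Pygl (-4.73) and Pygm (-2.75) and the cytosolic enzyme Pck1 (-2.60). Between the cell groups, only 8 carriers and 8 genes of glucose synthesis and glycogen turnover were bright enough to test. Pgam2, Slc2a4, Slc16a7, Slc2a12, Slc2a13, Pygl, Pygm and Pck1 were too dim for that. These genes entered the tests against lung through the lung arrays, where they are high. Their means in untreated cells were 21.5 or less, so the sizes of their falls depend on the offset of 16.

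On the hypoxia side, 2 of 14 further HIF partners and regulators were higher in untreated cells, Arnt2 (2.39) and Hif3a (1.59), and 2 were lower, Cited4 (-2.04) and Siah1a (-1.24). Of 30 further HIF targets 14 were higher and 8 lower, with a median change of 0.38, against 17.5% higher, 23.6% lower and a median of 0.01 over all genes tested. The largest changes were falls, in the endothelial receptors Flt1 (-6.23) and Kdr (-5.00), the vasoconstrictor gene Edn1 (-5.37) and the chemokine receptor Cxcr4 (-4.89). Kdr is also 1 of the 8 endothelial markers. Means in untreated cells were 5.12 for Flt1, 3.19 for Edn1 and 1.38 for Cxcr4, under the offset of 16, and 31.6 for Kdr. The sizes and order of these falls depend on the offset. Flt1, Edn1, Cxcr4 and Cited4 were too dim to be tested between the cell groups. They entered the tests against lung through the lung arrays, where they are high. The largest rises, named after their values were seen, were in the mTOR inhibitor gene Ddit4 (3.54), Ankrd37 (3.17), the carbonic anhydrase Car12 (2.93) and the collagen crosslinking enzyme Lox (2.52). In antibody-treated cells 13 of 30 were higher and 8 lower. Of proliferation markers, 7 of 7 were higher in both cell groups, at summed intensities of 6932 to 15955 in antibody-treated cells, 10848 to 14776 in untreated cells and 354 to 1375 in lung, and their part in the rise of the glycolytic genes was not tested.

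Treatment with the antibody left no called change among these genes. Of 32 genes tested in antibody-treated against untreated cells, 0 were called and 0 had an unadjusted p under 0.05 in the limma fit, where 0.0236% of all 12720 genes were called and 0.763% had an unadjusted p under 0.05. Slc2a3 and Car9 were too dim on the cell arrays to be tested. The changes ran up to 0.32 in size, and every 95% confidence interval stayed within 2-fold in either direction. A smaller change is not shown to be absent. The change was negative for 23 of 32 genes, with a median of -0.08 against -0.02 over all genes tested, of which 43.6% were positive.

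The 6 genes with the smallest p were Pfkp, Ldha, Egln1, Pfkl, Egln3 and Aldoc. Pfkp had the largest change, -0.32 (95% confidence interval -0.68 to 0.04; unadjusted p = 0.0787 in the limma fit), with an adjusted p of 0.999978, the same as for all 32 genes. The changes were -0.13 for Ldha, -0.20 for Egln1, -0.29 for Pfkl, -0.20 for Egln3 and -0.29 for Aldoc. Pfkl read 454, 430.3 and 659.8 on the antibody-treated arrays, against 522, 839.6 and 574 on the untreated arrays. After normalization the 2 groups of arrays separated for 0 of the 32 genes and 2.93% of all genes. On the deposited intensities they separated for 3, with Egln1, Pfkp and Pgk1 lower on every antibody-treated array than on any untreated array, and for 3.27% of all genes. On the log2 scale, spread within a group was widest for Ndrg1, with an SD of 0.74 in antibody-treated and 0.60 in untreated cells. Its intensities were 781 ± 424 in antibody-treated and 802 ± 397 in untreated cells (SD, n = 3 each). Its interval reached from -0.93 to 0.86. Hif1a changed by -0.10 and Epas1 by 0.17.

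**Figure D5:**
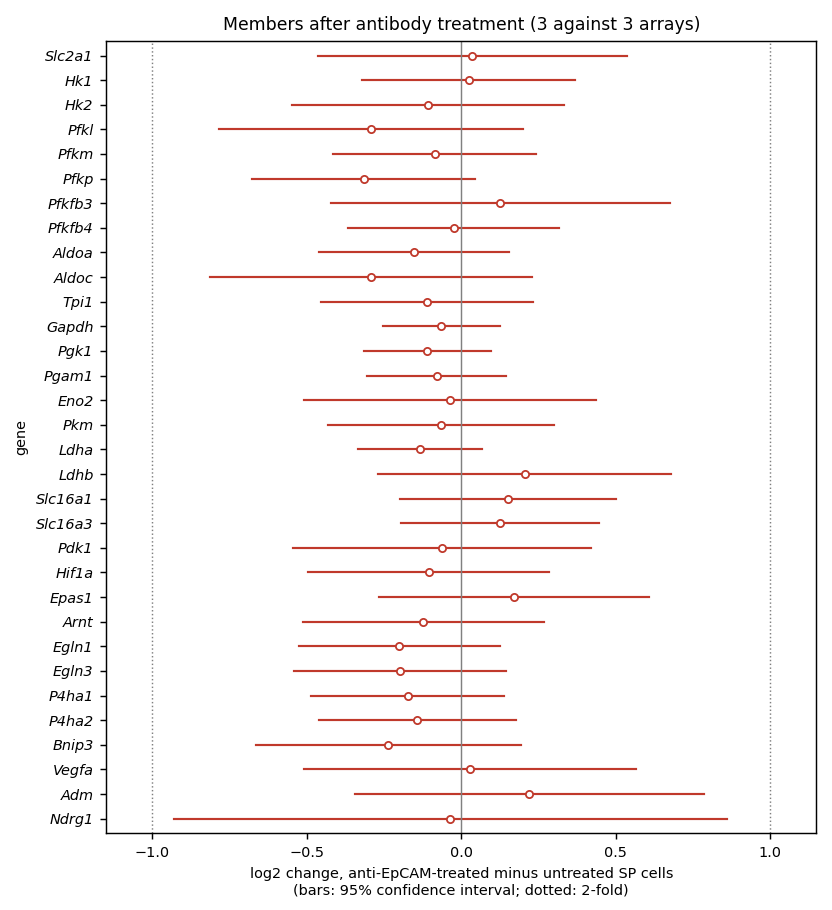
Log2 change of 32 genes in antibody-treated minus untreated SP cells, with 95% confidence intervals from 3 against 3 arrays; dotted lines mark 2-fold. Every interval crosses 0 and none reaches 2-fold.

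The array with the highest value in each cell group was listed for each gene. After normalization, Eno2, Hk2, Ndrg1, P4ha2, Slc16a3 and Slc2a1 were highest on antibody array 2 among the treated and on untreated array 1 among the untreated. This is 18.8% of the 32 genes, near the 16.4% of all genes tested. Bnip3, Egln1, Egln3, Hif1a, P4ha1 and Pfkp were highest on antibody array 2 and untreated array 2, which is 18.8% of the 32 genes and 6.91% of all genes. Another 10 genes, among them Aldoa, Aldoc, Hk1, Ldha, Pfkl, Pgam1, Pgk1 and Pkm, were highest on antibody array 3 and untreated array 2, which is 31.2% of the 32 genes and 16.9% of all genes. On the deposited intensities the pattern of antibody array 2 and untreated array 1 held 6 genes (16.6% of all genes), with Pgk1 in it and Eno2 not. The pattern of antibody array 3 and untreated array 2 held 7 genes (16.1%), without Hk1, Pgam1 and Pgk1. These are counts on 6 arrays of 1 line, given with no test.

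Within lung, no gene was called between the sexes as labelled. Of 33 genes tested in lung labelled female against male, 0 were called in the limma fit and 7 had an unadjusted p under 0.05, with 0.0486% and 10.5% of all 14401 genes. Egln3 was too dim on the lung arrays to be tested. Groups overlapped for all 33 genes, and were apart for 0.111% of all genes. Bnip3 had the smallest p, with 964 ± 124 in lung labelled female and 1197 ± 114 in lung labelled male (SD, n = 8 each), a change of -0.31 (adjusted p = 0.132). Adm changed by 0.91 (adjusted p = 0.256), with 254 ± 56.4 in lung labelled female and 151 ± 89.3 in lung labelled male (SD, n = 8 each). Its lowest values were 44.7 and 36.7 on the arrays labelled male 3 and 4, against 100.2 to 312 on the other 14.

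After normalization, those arrays stood outside the range of the other 14 lungs for 12 of the 33 genes, where 19.9% of all genes did so. Aldoc, Car9, Hif1a, Hk2, Ldha and Slc16a1 lay above it on both arrays, and Adm, Ldhb, P4ha1, Pfkp, Slc16a3 and Slc2a3 lay below. On the deposited intensities the same 6 lay below, and Aldoc, Car9, Gapdh, Hif1a and Ldha lay above, with 18.4% of all genes outside. Ldhb read 1162 and 1319.6 there, against 1836 to 2146 on the others, and Hif1a 1289 and 1121, against 680.4 to 1079.9. Across the 16 lungs the spread on the log2 scale was widest for Adm, with an SD of 0.80, followed by Slc2a3 (0.55) and Slc16a3 (0.42), and smallest for Epas1 (0.07), Egln1 (0.08), Aldoa (0.09) and Gapdh (0.09). After normalization, replicate numbers 1 to 4 and 5 to 8 of female lung did not overlap for 5 genes (Hif1a, Pfkl, Pkm and Slc16a3 above, Pgk1 below; 23.7% of all genes), and in male lung for 7 (18.0%). Over both sexes none of the 33 separated by number, with 3.01% of all genes. On the deposited intensities the counts were 8 genes in female lung (24.98% of all genes), 11 in male lung (22.4%) and 1 over both, Pgk1 (4.73%).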

How the data were processed

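Messenger RNA of 22 mouse samples was measured on Affymetrix arrays of 45101 probe sets. The authors deposited intensities on a linear scale, summarized with PLIER per the submitters' processing notes; its version, background correction and scaling between arrays are not given in the sources used here. Genes were named through the platform annotation: of 45037 probe sets other than controls, 34945 had 1 symbol, 932 several and 9160 were not listed. Gapdh is represented by control probe sets.

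From the deposited intensities, log2(intensity + 16) was computed and quantile normalized over the 22 arrays. A gene took the probe set with the highest mean log2 value, avoiding the cross-hybridizing type (_x_at) where another existed. For Aldoa no other type existed. Genes entered a test where 3 or more compared arrays exceeded the 40th percentile of their array. A gene dim in cells or in lung could so enter through the other, where it is high. Of the 34 genes, Egln3 did so through cells, and Slc2a3 and Car9 through lung. Several genes of the further lists and most endothelial and myeloid markers did so through lung. Tests were two-sided moderated tests of limma 3.58.1 (R 4.3.3) with a variance trend, adjusted by Benjamini-Hochberg over all genes tested and called at 0.05: 6 cell arrays for antibody-treated against untreated cells, all 22 arrays in 4 groups for each cell group against the mean of both lung groups (with at least 2-fold required), and 16 lung arrays for female against male. In the fit of 4 groups the variance comes mostly from lung. The fits were tested on simulated data. No read depth applies to arrays, and their number limits the precision. The deposited values carry no detection call.

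Array values were given for up to 8 called genes with the largest rise and fall in untreated cells against lung, for Hif1a and Epas1 and for the 6 smallest p after antibody, and of each further list up to 4 called genes with the largest change were named; the array values of Car9, and Minpp1, Bpgm, Pgm2l1 and Slc2a10, were added after their values were seen. The 36 genes, the further lists, the tests and the rule were chosen with earlier results of these data known. Deviations of same-numbered cell arrays correlated at 0.12, -0.22 and 0.04, so these arrays did not resemble each other. With 3 arrays per group, this cannot show whether the samples were prepared in pairs. Alternatives covered normalization, offset, filter, probe set choice, variance model, the lung arrays used, and each cell array left out in turn. Over all genes, untreated cells against lung had a median change of 0.01 after quantile normalization, -0.15 with no normalization and 0.12 with median centring.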

Additional observations from a re-analysis of the deposited data

How the results depend on the processing

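Over 1537 recomputed values of single genes, 1461 kept their direction and side of the threshold, 59 newly passed it, 13 no longer did and 4 reversed. Many of the 59 passed only because the 2-fold requirement was dropped, with the value unchanged, as for Hk1 and Gapdh. All 4 reversals were Pfkl in antibody-treated cells against lung, main value 0.03: -0.0567 without normalization, -0.0625 with array weights, -0.14 to 0.11 without 1 antibody array (negative without replicate 3) and -0.0954 with lung arrays 1 to 4 only, an alternative added after seeing the data. Vegfa fell under 2-fold as the mean of its probe sets, at -0.97 in antibody-treated and -0.89 in untreated cells, and Aldoc in antibody-treated cells did so at 0.85. Without normalization, 8 genes were lower in untreated cells. Without the 2-fold requirement 21 genes were higher in antibody-treated cells, and 22 were higher and 10 lower in untreated cells, with 12225 and 12398 genes called in all. With median centring 16 genes were higher in antibody-treated cells, with Hk1, Pfkp, Gapdh and Ldha added, and 18 in untreated cells, with Hk1, Pfkm, Aldoa, Gapdh and Ldha added.

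Between antibody-treated and untreated cells no alternative called any of the 32 genes; over all genes 3 were called, 1 at an offset of 1, and 0 to 3 without 1 cell array, with 0 without untreated replicate 3 and 1 without untreated replicate 1. Between lung labelled female and male none of the 33 genes was called either; of all genes 7 were called, 15 with median centring, 4 with no filter, 24 with the 60th percentile filter, 15 with all probe sets, 4 with no variance trend, 81 with array weights and 45 without the arrays labelled male 3 and 4. With numbers 1 to 4 or 5 to 8 as a block, added after seeing the data, 41 were called. With the replicate number as a block, 2 genes were called between the cell groups and 1 between the lung groups. None of them was among the 34 described, and Pfkp changed by -0.32 (SE 0.15). Whether the numbers pair the samples was not settled.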
